A study of Mus musculus with 2 samples.

Results

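Inhibitory checkpoint receptors are surface proteins that limit the activation of lymphocytes, and 8 of their genes were followed here among the 32285 genes listed in the files. They were picked by symbol as Pdcd1 (PD-1), Lag3, Havcr2 (TIM-3), Tigit, Ctla4, Cd160, Entpd1 (CD39) and Btla, and all 8 symbols were found once. Their unique molecules (UMIs) were summed per cell class in each of 2 single-cell RNA libraries of unsorted cells from mouse pancreatic tumors. The tumors grew in the pancreas after injection of KPC cells, which come from mouse pancreatic cancer.

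The library labelled FLOX came from mice whose MCT1 gene (Slc16a1, a lactate transporter) carries loxP sites. The library labelled MCT1-KO came from mice of the PSCs-MCT1-/- type, in which a tamoxifen-inducible Cre under the Col1a2 promoter is directed at pancreatic stellate cells (PSCs). That promoter is also active in other fibroblasts. By the study's methods the mice were male, and its scheme has tamoxifen or corn oil given before KPC cells were placed in the pancreas. How many mice or tumors went into each library is not given in the sources used here. The methods name C57BL/6 mice 8 weeks old without tying that age to these libraries. Each genotype had 1 library, so no difference between them has a replicate check, no p-value is given, and every 95% interval below covers counting error only. The sampled mouse or tumor cannot be told apart from the genotype. Slc16a1 was not lower in PSC or fibroblast cells of the library labelled MCT1-KO, with 255 UMIs (43.2 CPM, which is UMIs of the gene over all UMIs of the class, scaled to 1000000) against 198 UMIs (34.7 CPM) in FLOX, so that library is called by its label throughout. The libraries count 3′ ends of transcripts, and which stretch of Slc16a1 is deleted is not given in the sources used here, so these counts are no check of the deletion itself.

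These receptors work in different ways. PD-1, BTLA and TIGIT carry inhibitory motifs in their tails and recruit phosphatases to the T cell receptor or its costimulators, and PD-1 is best known as the receptor blocked in cancer immunotherapy. CTLA-4 competes with CD28 for CD80 and CD86 and is held at high level by regulatory T cells. LAG-3 binds MHC class II, TIM-3 binds galectin-9 and other ligands and is also made by myeloid cells, CD160 binds HVEM on cytotoxic cells, and CD39 is an enzyme that breaks down extracellular ATP. In T cells exposed to antigen for long, several of them are found on the same cell, a state called exhaustion.

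Filters of at least 500 UMIs, 200 to 5000 detected genes and at most 8% mitochondrial UMIs kept 8739 cells in FLOX and 11689 in the library labelled MCT1-KO, with medians of 4069 and 3706 UMIs. Each cell was put in a class by marker genes, none of which is a receptor gene followed here. This gave 297 and 207 CD8 T cells (Cd8a or Cd8b1, no Cd4 or Foxp3), 56 and 60 CD4 T cells, 10 and 15 regulatory T cells (Foxp3) and 71 and 104 other T cells, in the order FLOX and labelled MCT1-KO. Of the CD8 T cells, 36 and 29 were cycling and 5 and 7 naive-like by marker genes. The remaining 256 and 171 are called CD8 T cells outside the cell cycle, a name that leaves out the naive-like ones. Median depth was 3278 and 2999 UMIs in CD8 T cells and 4884 and 2546 UMIs in CD4 T cells. Of the kept cells, 2178 and 3613 matched no class and 185 and 193 matched more than 1. The libraries shared 59 cell barcodes, of which 0 were T or NK cells.

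Free RNA was read from barcodes with 10 to 100 UMIs. There the receptor genes lay between 1.06 CPM (Tigit) and 26.2 CPM (Entpd1) in FLOX, and between 0.751 and 17.3 CPM for the same genes in the other library. Tumor cells here are the ductal or tumor class, set by epithelial genes such as Krt18 and Epcam in cells that matched no other class. Normal duct cells can be among them, and the class needed only 0.5 times the marker UMIs expected from empty barcodes. Levels of the receptors in tumor cells and in PSC or fibroblast cells, at most 4.2 CPM for any gene in either library, were below the free-RNA level of the same gene in both libraries. Free RNA could account for 7.5% (FLOX) and 5.14% of tumor cell UMIs, judged by macrophage and collagen genes. A level below that of empty barcodes therefore does not by itself mark these UMIs as free RNA. Their source was not tested, and they are not read as expression.

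The genes lie on 6 chromosomes of the GRCm38 build, by GENCODE vM21 annotation matched on the gene identifier. Pdcd1 (ENSMUSG00000026285) is at chr1:94038305-94052553 on the minus strand and Ctla4 (ENSMUSG00000026011) at chr1:60887000-60915832 on the plus strand. Tigit (ENSMUSG00000071552, chr16:43648867-43664146, minus) and Btla (ENSMUSG00000052013, chr16:45224315-45257670, plus) share chromosome 16. Lag3 (ENSMUSG00000030124) is at chr6:124904361-124911705 on the minus strand, Havcr2 (ENSMUSG00000020399) at chr11:46454935-46481255 on the plus strand, Cd160 (ENSMUSG00000038304) at chr3:96798763-96829351 on the minus strand and Entpd1 (ENSMUSG00000048120) at chr19:40612366-40741602 on the plus strand. All 8 are protein-coding. Cd160 overlaps Pdzk1 on the opposite strand, Ctla4 overlaps the pseudogene Rpl18-ps1, and Entpd1 overlaps 3 annotated genes on its own strand, so reads in those stretches could be split. Whether the counting used strand is not stated in the sources used here.

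The promoters of 5 receptors are shown because the classes that hold these genes differ: T cells for Pdcd1, Ctla4 and Tigit, T and myeloid cells for Havcr2, and B and dendritic cells for Btla. A RefSeq promoter was matched for 7 of the 8 genes. Each run has 250 bases before and 50 bases after the start of transcription (RefSeq, GRCm38.p6), 5′ to 3′ on the gene's own strand. Capitals mark the motifs searched on both strands: the NFAT core GGAAA, AP-1 TGANTCA, STAT TTCNNNGAA, RUNX TGTGGT and ETS GGAAGT.
Pdcd1, chr1:94052504-94052803, minus strand: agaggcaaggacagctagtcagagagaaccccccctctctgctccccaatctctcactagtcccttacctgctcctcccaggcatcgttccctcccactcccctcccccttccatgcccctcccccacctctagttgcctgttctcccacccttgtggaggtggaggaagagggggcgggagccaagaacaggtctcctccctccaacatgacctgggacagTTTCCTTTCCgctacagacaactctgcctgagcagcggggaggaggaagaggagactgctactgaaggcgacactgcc
Ctla4, chr1:60908775-60909074, plus strand: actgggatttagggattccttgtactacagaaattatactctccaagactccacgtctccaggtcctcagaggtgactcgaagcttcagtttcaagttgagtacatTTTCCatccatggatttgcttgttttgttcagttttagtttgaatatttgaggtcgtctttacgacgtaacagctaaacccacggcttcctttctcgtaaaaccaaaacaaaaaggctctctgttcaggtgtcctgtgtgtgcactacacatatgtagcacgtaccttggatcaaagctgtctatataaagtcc
Tigit, chr16:43664135-43664434, minus strand: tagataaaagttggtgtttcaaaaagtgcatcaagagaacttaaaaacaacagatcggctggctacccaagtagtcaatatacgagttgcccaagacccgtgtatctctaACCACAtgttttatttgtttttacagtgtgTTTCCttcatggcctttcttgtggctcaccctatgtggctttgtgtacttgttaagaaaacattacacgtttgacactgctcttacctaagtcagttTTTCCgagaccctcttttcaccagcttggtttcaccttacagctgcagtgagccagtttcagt
Havcr2, chr11:46454681-46454980, plus strand: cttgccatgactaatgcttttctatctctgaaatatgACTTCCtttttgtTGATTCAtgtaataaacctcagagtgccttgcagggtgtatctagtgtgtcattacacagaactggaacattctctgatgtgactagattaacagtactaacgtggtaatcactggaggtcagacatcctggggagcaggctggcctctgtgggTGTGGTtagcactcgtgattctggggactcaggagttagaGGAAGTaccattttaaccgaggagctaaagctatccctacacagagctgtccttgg
Btla, chr16:45224087-45224386, plus strand: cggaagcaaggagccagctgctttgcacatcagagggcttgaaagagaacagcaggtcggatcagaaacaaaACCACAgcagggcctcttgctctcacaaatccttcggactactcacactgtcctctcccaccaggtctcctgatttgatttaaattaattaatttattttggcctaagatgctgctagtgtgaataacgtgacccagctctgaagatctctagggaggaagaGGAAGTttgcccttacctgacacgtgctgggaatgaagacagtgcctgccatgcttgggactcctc
The Pdcd1 window held 2 NFAT cores side by side, at -28 and -23 from the start, the Ctla4 window 1 at -144 and the Tigit window 2, at -110 and -13. Those of Havcr2 and Btla held 0 NFAT cores, and each had a RUNX match (at -46 and -178), as did Tigit (at -140), and an ETS match close to the start (at -6 and -16), and Havcr2 also an AP-1 match at -200. Of 32851 mouse promoter windows of this length, 61.3% held the NFAT core, 7.81% the AP-1, 8.3% the STAT, 16.8% the RUNX and 23.8% the ETS letters. Of the genes matched but not shown, Entpd1 had 0 NFAT cores in 1 promoter entry and 2 in the other, and Cd160 had 1 and 0. NFAT cores were thus not limited to genes held mainly by T cells. A match is a description of letters, and binding was not measured.

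Cd160, Pdcd1, Ctla4 and Tigit transcripts were found mainly in lymphocytes. T and NK cells held 80.3% of all Pdcd1 UMIs in FLOX and 63.0% in the library labelled MCT1-KO. The shares were 89.2% and 84.3% for Cd160, 76.4% and 71.0% for Ctla4, and 71.0% and 70.5% for Tigit. For Lag3 they were 48.7% and 38.6%, for Havcr2 10.8% and 8.94%, and for Entpd1 3.03% and 1.78%. Macrophages held 64.1% and 66.2% of Havcr2 UMIs and 67.4% and 66.2% of Entpd1 UMIs. Conventional dendritic cells held 52.4% of Btla UMIs in FLOX and 19.4% in the other library, where B cells held 25.8%. Tumor cells held 2.53% of Pdcd1 UMIs in FLOX and 18.0% in the library labelled MCT1-KO. All these shares depend on how many cells of each class a library holds.

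**Figure D1:**
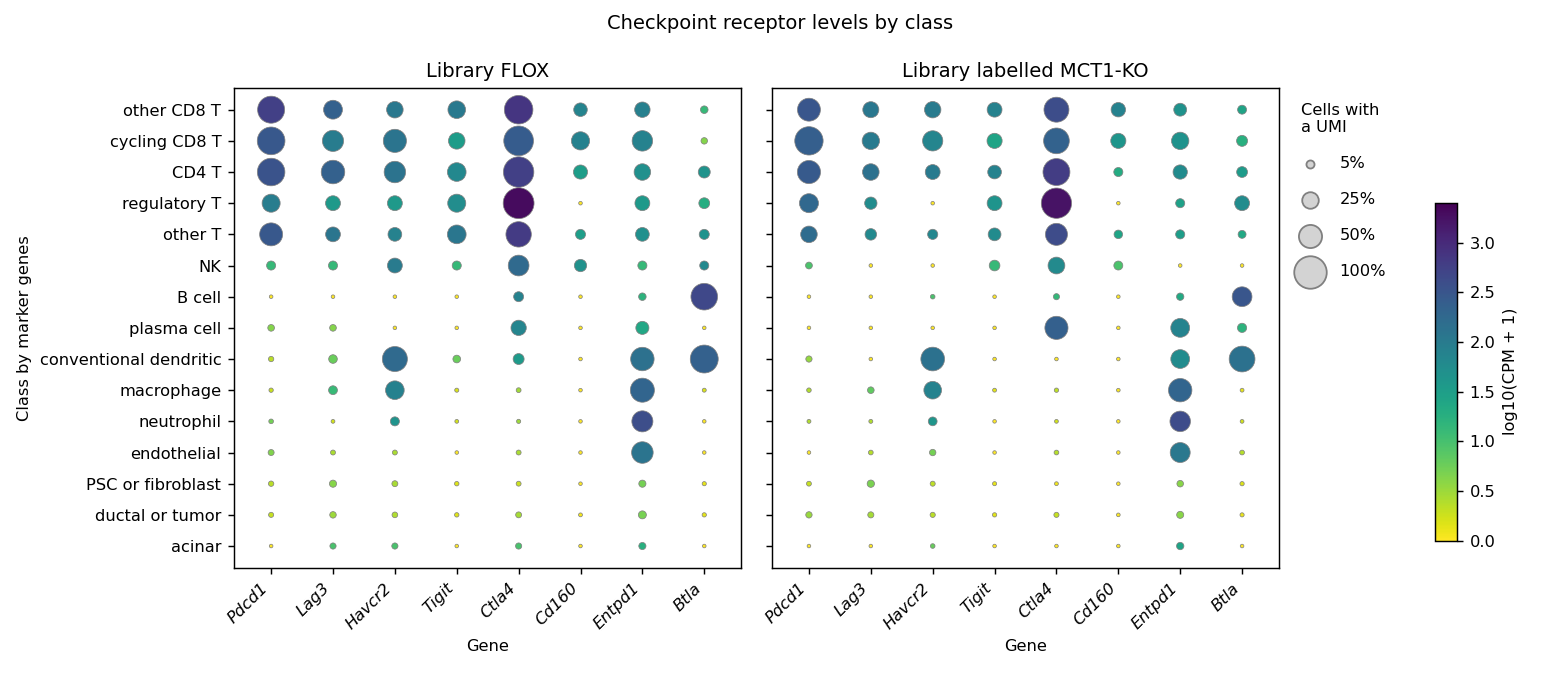
Level of the 8 receptor genes (x axis) in 15 classes (y axis) of each library, with color for log10(CPM + 1) and point size for the percent of cells with at least 1 UMI. Pdcd1, Lag3, Tigit, Ctla4 and Cd160 are darkest in T cell classes, Havcr2 and Entpd1 extend to dendritic cells, macrophages and neutrophils, and Btla stands out in B cells and conventional dendritic cells.

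Pdcd1, the gene of PD-1, was highest in CD8 T cells outside the cell cycle, at 561 CPM (498 UMIs in 256 cells) in FLOX and 312 CPM (184 UMIs in 171 cells) in the library labelled MCT1-KO. CD4 T cells followed with 335 and 280 CPM, cycling CD8 T cells with 301 and 243 CPM, and other T cells with 294 and 163 CPM. Regulatory T cells, at 91.6 and 185 CPM, lay above other T cells only in the library labelled MCT1-KO. Over both libraries, CD8 T cells outside the cell cycle stood clear of CD4 T cells (461 CPM, 427 to 497, against 315 CPM, 269 to 365), whereas the intervals of CD4, cycling CD8 and other T cells overlapped one another. Taken by library, CD8 T cells as a whole exceeded CD4 T cells 1.47 times (1.21 to 1.82) in FLOX only. In the library labelled MCT1-KO the ratio was 1.03 (0.766 to 1.39), with an interval that held 1. With deep barcodes only as cells (a minimum of 5947 UMIs in FLOX and 4662 in the library labelled MCT1-KO), the level over both libraries in CD8 T cells outside the cell cycle was 277 CPM. In NK cells Pdcd1 had 1 and 2 UMIs. B cells had 0 in both libraries. Macrophages had a Pdcd1 UMI in 14 of 2500 and 16 of 2170 cells, and their median depth was 5815 and 4813 UMIs. Of CD8 T cells, 68.7% and 51.7% had one at lower depth.

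Lag3, the gene of an MHC class II receptor, was at 224 and 138 CPM in CD4 T cells and at 230 and 113 CPM in CD8 T cells outside the cell cycle, and the intervals of these classes over both libraries overlapped. It was at 95.9 and 101 CPM in cycling CD8 T cells. In macrophages Lag3 was at 11.7 and 5.85 CPM, close to the empty barcodes (10.7 and 5.69 CPM). Macrophages nevertheless held 24.4% and 17.9% of all Lag3 UMIs. A level close to that of empty barcodes does not by itself mark these UMIs as free RNA, and their source was not tested.

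Tigit, which binds the nectin family proteins PVR and Nectin2, was at 104 and 76.2 CPM in CD8 T cells outside the cell cycle, 116 and 57.9 CPM in other T cells and 64.1 and 78.7 CPM in CD4 T cells. The intervals of these classes over both libraries overlapped. Cycling CD8 T cells were lower, at 33.1 and 25.1 CPM. With deep barcodes only as cells, the level in CD8 T cells outside the cell cycle over both libraries was 38.0 in place of 92.7 CPM.

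Ctla4, the competitor of CD28, was highest in regulatory T cells: 1998 CPM (109 UMIs in 10 cells) in FLOX and 1691 CPM (119 UMIs in 15 cells) in the library labelled MCT1-KO. That was 3.50 times (2.74 to 4.45) and 2.71 times (2.09 to 3.50) the CD4 T cells outside that class, at 571 and 625 CPM. These few cells carried Foxp3 by definition, and Ikzf2, another regulatory T cell gene that the gate did not use, was found in 10 of 10 and 13 of 15 of them, at 1668 and 1436 CPM against 711 and 182 CPM in CD4 T cells. A regulatory T cell with no Foxp3 UMI detected would be counted among CD4 T cells, so the CD4 class may be mixed. The part of this in the Ctla4 contrasts was not tested. Counts of the other receptors in regulatory T cells were small. Pdcd1 had 5 and 13 UMIs (91.6 and 185 CPM), or 0.274 times (0.0872 to 0.657) the CD4 T cells in FLOX and 0.659 times (0.331 to 1.22) in the other library. Lag3 had 2 and 4 UMIs (36.7 and 56.9 CPM), Havcr2 2 and 0, and Tigit 3 in each library (55.0 and 42.6 CPM).

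Cd160, a receptor of cytotoxic lymphocytes, was at 73.2 and 76.2 CPM in CD8 T cells outside the cell cycle and at 82.7 and 41.9 CPM in cycling ones. CD8 T cells as a whole exceeded CD4 T cells 2.36 times (1.26 to 4.89) in FLOX and 3.29 times (1.22 to 12.5) in the other library, from 91 against 11 UMIs and 55 against 4 UMIs. NK cells, where Cd160 is well known, held only 4 and 2 UMIs in 15 and 31 cells.

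Cycling CD8 T cells (36 and 29 cells) differed from the other CD8 T cells gene by gene. Ctla4 was at 261 against 759 CPM in FLOX, a ratio of 0.344 (0.269 to 0.435), and at 222 against 411 CPM in the library labelled MCT1-KO, 0.540 (0.393 to 0.729). Tigit had ratios of 0.319 (0.148 to 0.614) and 0.33 (0.115 to 0.776). Pdcd1 and Lag3 were lower in cycling cells in FLOX, with ratios of 0.536 (0.424 to 0.672) and 0.417 (0.273 to 0.618), but their intervals held 1 in the other library (0.780, 0.570 to 1.05, and 0.886, 0.532 to 1.43). For Havcr2, Cd160 and Entpd1 the intervals held 1 in both libraries. Cycling cells were also deeper, with median UMIs of 8105 and 7101 against 3022 and 2791.

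Havcr2, the gene of TIM-3, was highest in conventional dendritic cells, at 173 and 135 CPM, and the intervals over both libraries overlapped with those of CD4 T cells (125 and 103 CPM). Without an upper limit of genes per cell, the level in conventional dendritic cells over both libraries was 104 in place of 160.3 CPM, so that its first place is not firm. CD8 T cells outside the cell cycle had 108 and 99.9 CPM and macrophages 82.7 and 76.7 CPM, from 1221 and 866 UMIs. Neutrophils had 44.0 and 41.5 CPM. In macrophages with a UMI of the monocyte genes Ly6c2 or Ccr2, Havcr2 was at 90.0 and 81.6 CPM, and in those without at 81.7 and 76.3 CPM, with intervals that overlapped.

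Entpd1, the gene of the ATP-degrading enzyme CD39, was highest in neutrophils, at 397 CPM (559 UMIs in 727 cells) and 414 CPM (548 UMIs in 779 cells). Macrophages followed with 200.6 CPM in both libraries (2962 and 2264 UMIs), then endothelial cells with 122 and 108 CPM and conventional dendritic cells with 141 and 59.1 CPM, whose intervals over both libraries overlapped. Neutrophils had a median depth of 1480 and 1099 UMIs, below the minimum for deep barcodes. With deep barcodes only as cells, the neutrophil level over both libraries was 41.3 in place of 405 CPM. T cells were lower: CD8 T cells had 82.1 and 44.8 CPM, against 26.2 and 17.3 CPM in empty barcodes. Of the 8 receptors this was the one closest to its free-RNA level in CD8 T cells of both libraries.

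Btla, which like CD160 binds HVEM, was highest in B cells, at 453 CPM (29 UMIs in 24 cells) and 311 CPM (73 UMIs in 127 cells), and next in conventional dendritic cells, at 225 and 135 CPM. B cells had a median depth of 1848 and 1350 UMIs, below the minimum for deep barcodes. With deep barcodes only as cells, the B cell level over both libraries was 41.9 in place of 341 CPM. In the T cell classes with at least 10 cells in each library it did not exceed 56.9 CPM, and CD4 T cells held 15 and 7 UMIs. Among conventional dendritic cells, those with a UMI of Xcr1 or Clec9a (48 and 21 cells, markers of cross-presenting dendritic cells) had Btla at 259 and 202 CPM, found in 89.6% and 76.2% of cells. The remaining 20 and 19 dendritic cells had 120.2 and 65.5 CPM. The same Xcr1 or Clec9a cells had more Havcr2 (214 and 241 CPM against 45.1 and 25.2 CPM) and Entpd1 (173 and 106 CPM against 40.1 and 10.1 CPM), and these intervals did not overlap in either library.

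In CD8 T cells, Pdcd1, Lag3, Ctla4 and Entpd1 were lower in the library labelled MCT1-KO, while for Havcr2, Tigit and Cd160 a difference was not detectable at this depth. Pdcd1 had 595 UMIs in 297 cells of FLOX (494 CPM, 455 to 535) and 244 UMIs in 207 cells of the other library (287 CPM, 253 to 326), a ratio of 0.582 (0.5 to 0.677). Ctla4 had 766 and 305 UMIs (635 and 359 CPM), a ratio of 0.566 (0.494 to 0.647). Lag3 had 234 and 92 UMIs (194 and 108 CPM), a ratio of 0.558 (0.434 to 0.714), and Entpd1 99 and 38 UMIs (82.1 and 44.8 CPM), a ratio of 0.545 (0.365 to 0.8).

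For the other receptors the interval of the ratio held 1. Havcr2 had 133 and 77 UMIs (110 and 90.7 CPM), a ratio of 0.822 (0.613 to 1.10). Tigit had 102 and 53 UMIs (84.6 and 62.4 CPM), a ratio of 0.738 (0.519 to 1.04), and Cd160 91 and 55 UMIs (75.5 and 64.8 CPM), a ratio of 0.858 (0.603 to 1.21). Btla had 13 and 19 UMIs (10.8 and 22.4 CPM), a ratio of 2.08 (0.973 to 4.57), and was below the minimum of 50 UMIs over both libraries set for a count of genes.

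**Figure D2:**
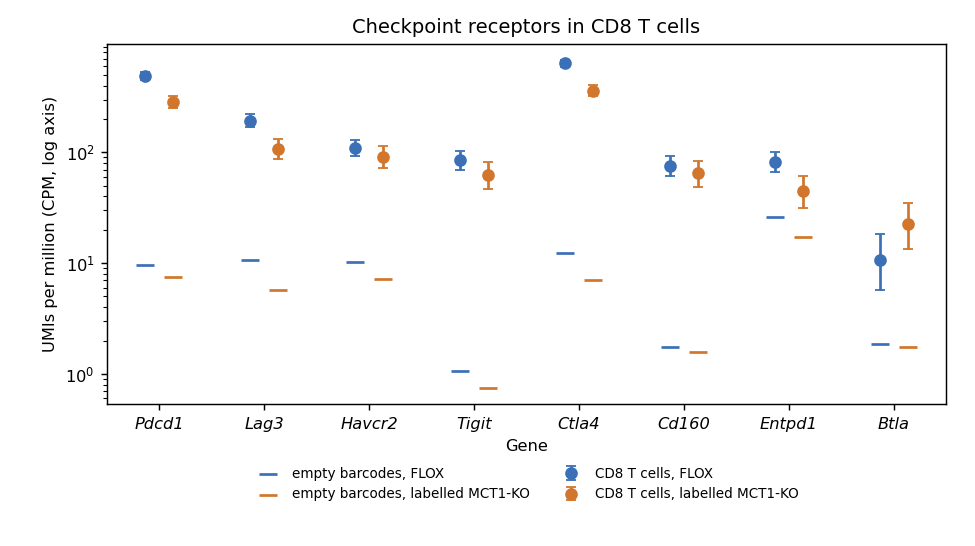
Level of each receptor gene in CD8 T cells of both libraries, in CPM on a log axis, with 95% counting intervals as bars and the level in empty barcodes as dashes. The points of Pdcd1, Lag3, Ctla4 and Entpd1 lie lower in the library labelled MCT1-KO with bars that do not overlap, and Entpd1 lies nearest to its empty-barcode dash.

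Of the 7 receptor genes with at least 50 UMIs, 4 had a ratio below 1/1.5 and 0 had one above 1.5. Over all 5208 genes with that many UMIs in CD8 T cells, 9.49% lay below 1/1.5 and 7.12% above 1.5. The median ratio was 0.582 over the 7 receptors and 0.984 over all these genes. The receptors were measured in the same cells and are not independent of each other. Deep barcodes only, at a minimum of 5947 UMIs in FLOX and 4662 in the other library, left 43 and 54 CD8 T cells. With these, the ratios of Pdcd1 (0.812) and Lag3 (0.672) were no longer below 1/1.5, and that of Havcr2 (0.628) was. The minimum differed between the libraries, and its part in these ratios was not tested.

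With CD8 T cells split at 3000 UMIs, Pdcd1 and Ctla4 were lower in both shallow and deep cells of the library labelled MCT1-KO. In CD8 T cells under 3000 UMIs (129 in FLOX and 104 in the other library), Pdcd1 had 684 and 393 CPM, a ratio of 0.574 (0.442 to 0.742), and Ctla4 had 810 and 508 CPM, a ratio of 0.627 (0.497 to 0.787). In cells with 3000 UMIs or more (168 and 103), the ratios were 0.574 (0.473 to 0.692) and 0.525 (0.443 to 0.621). Lag3 and Entpd1, by contrast, had ratios of 0.973 (0.515 to 1.81) and 1.04 (0.475 to 2.25) in the shallow cells and of 0.511 (0.385 to 0.671) and 0.432 (0.262 to 0.688) in the deep ones. Havcr2 and Tigit had ratios of 0.664 (0.464 to 0.938) and 0.554 (0.331 to 0.898) in the deep cells and of 1.48 and 0.965 in the shallow ones. Their shallow-cell counts were small (26 and 20 UMIs of Lag3, 17 and 14 of Entpd1), and the difference between the depth ranges was not tested.

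**Figure D3:**
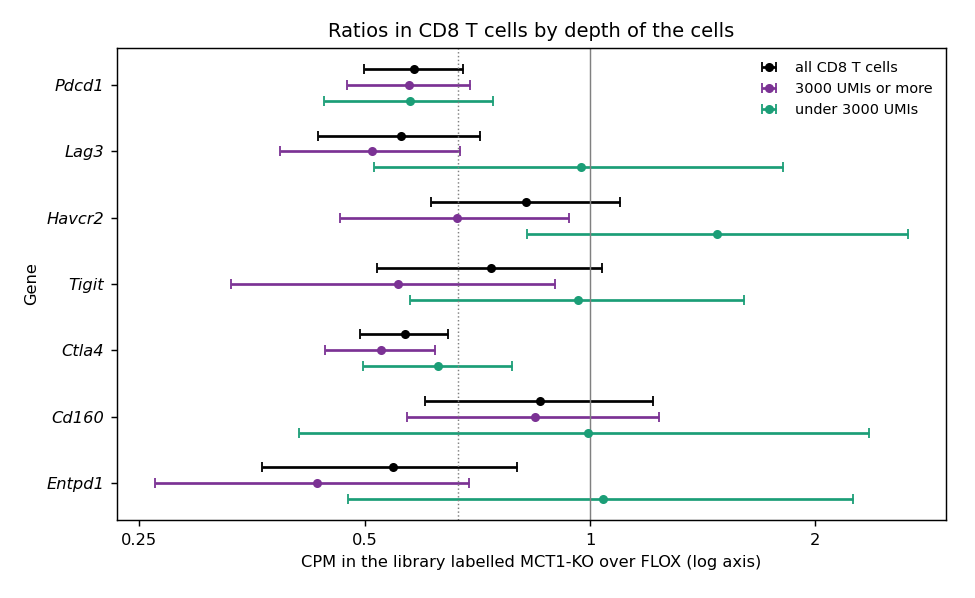
Ratio of the CPM in the library labelled MCT1-KO over FLOX (log x axis) for 7 receptor genes (y axis) in all CD8 T cells, in those with 3000 UMIs or more and in those under 3000 UMIs, with 95% counting intervals. The solid line marks 1 and the dotted line 1/1.5. Pdcd1 and Ctla4 lie left of 1 at both depths, and for the other 5 genes the intervals of the shallow cells hold 1.

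Detection per cell was then compared at equal depth. With each cell thinned to 1000 UMIs (292 and 200 cells, leaving out 5 and 7 shallower ones), Pdcd1 was found in 41.1% (35.4 to 47.0) of CD8 T cells in FLOX and in 25% (19.2 to 31.6) in the library labelled MCT1-KO, against 68.7% and 51.7% before thinning. Ctla4 was found in 40.1% and 33.0%, Lag3 in 14.0% and 12%, Havcr2 in 11.0% and 8.5%, Tigit in 10.3% and 4.5%, Cd160 in 6.51% and 6%, and Entpd1 in 8.56% and 5.5%. Only for Pdcd1 did the intervals of the libraries not overlap. Among unthinned cells, 35 of 297 held 5 or more Pdcd1 UMIs in FLOX and 11 of 207 in the other library, and for Ctla4 53 and 15 did.

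Signs of other cells and of the state of the RNA moved with the libraries in the same CD8 T cells. The macrophage genes C1qa and Apoe were at 108 and 655 CPM in FLOX and at 31.8 and 337 CPM in the other library, and the share of UMIs that free RNA could account for, was 7.84% and 4.68% from 7 macrophage and collagen genes but 13.6% and 13.8% from acinar genes. The 7 heat shock and stress genes summed to 4074 and 1458 CPM, and acinar enzyme genes to 43.1 and 2293 CPM. Their part in the receptors' difference was not tested. When T cells with any UMI of C1qa, C1qb, C1qc, Col1a1, Col1a2 or Krt18 were left out, 81 and 113 CD8 T cells remained. The ratio was then 0.533 for Pdcd1, 0.712 for Ctla4, 0.722 for Lag3 and 0.720 for Entpd1, so that the last 3 no longer lay below 1/1.5, and Havcr2 and Tigit turned to 1.41 and 1.25.

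In CD4 T cells, 1 of the 4 receptor genes with enough UMIs lay below 1/1.5 and 0 above 1.5, where 16.9% and 11.1% of 1718 genes did. That gene was Lag3, with 77 and 28 UMIs and a ratio of 0.614 (0.384 to 0.958). In these CD4 T cells the free-RNA share from macrophage and collagen genes was 12% and 4.29%, and heat shock and stress genes summed to 3564 and 1176 CPM. Their part in the Lag3 difference was not tested. Pdcd1 had 115 and 57 UMIs, a ratio of 0.838 (0.599 to 1.16), and Ctla4 196 and 127 UMIs, a ratio of 1.09 (0.869 to 1.38). For Ctla4 the CD4 interval lies wholly above that of CD8 T cells. Median depth differed more between the libraries in CD4 T cells (4884 and 2546 UMIs) than in CD8 T cells (3278 and 2999 UMIs). The part of depth in this contrast was not tested, nor was that of regulatory T cells without a Foxp3 UMI among the CD4 T cells. In regulatory T cells Ctla4 had a ratio of 0.847 (0.647 to 1.11). In other T cells, which have neither Cd8 nor Cd4 or carry mixed markers, Pdcd1 was at 294 and 163 CPM, a ratio of 0.553 (0.374 to 0.81), and Ctla4 at 639 and 420 CPM, a ratio of 0.657 (0.513 to 0.838).

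In the myeloid classes that hold most of Havcr2 and Entpd1, the intervals of the ratio held 1. In macrophages Havcr2 had a ratio of 0.928 (0.850 to 1.01) and Entpd1 one of 1.0 (0.946 to 1.06), and in neutrophils Entpd1 had 1.04 (0.925 to 1.17). Of 3 receptor genes with enough UMIs in macrophages, 1 lay below 1/1.5 and 0 above, where 9.21% and 8.57% of 11325 genes did. That gene was Lag3, at a level close to that of empty barcodes in both libraries, and how much of it is free RNA was not tested. In conventional dendritic cells (68 and 40 cells), 2 of 3 lay below 1/1.5 and 0 above, where 15% and 13.9% of 3403 genes did: Entpd1 with 114 and 24 UMIs, a ratio of 0.42 (0.259 to 0.657), and Btla with 182 and 55 UMIs, a ratio of 0.604 (0.438 to 0.82). The Xcr1 or Clec9a cells, which hold most of both genes, made up 48 of 68 dendritic cells in FLOX and 21 of 40 in the other library. Within them Btla was at 259 CPM (220.0 to 302) and 202 CPM (146 to 274) and Entpd1 at 173 CPM (142 to 209.8) and 106 CPM (66.5 to 161), and the difference of either gene within them was not tested. Of 7 heat shock and stress genes in conventional dendritic cells, 6 lay below 1/1.5, with a median ratio of 0.143. Their part in the receptors' difference there was not tested. B cells had a Btla ratio of 0.686 (0.441 to 1.09).

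**Figure D4:**
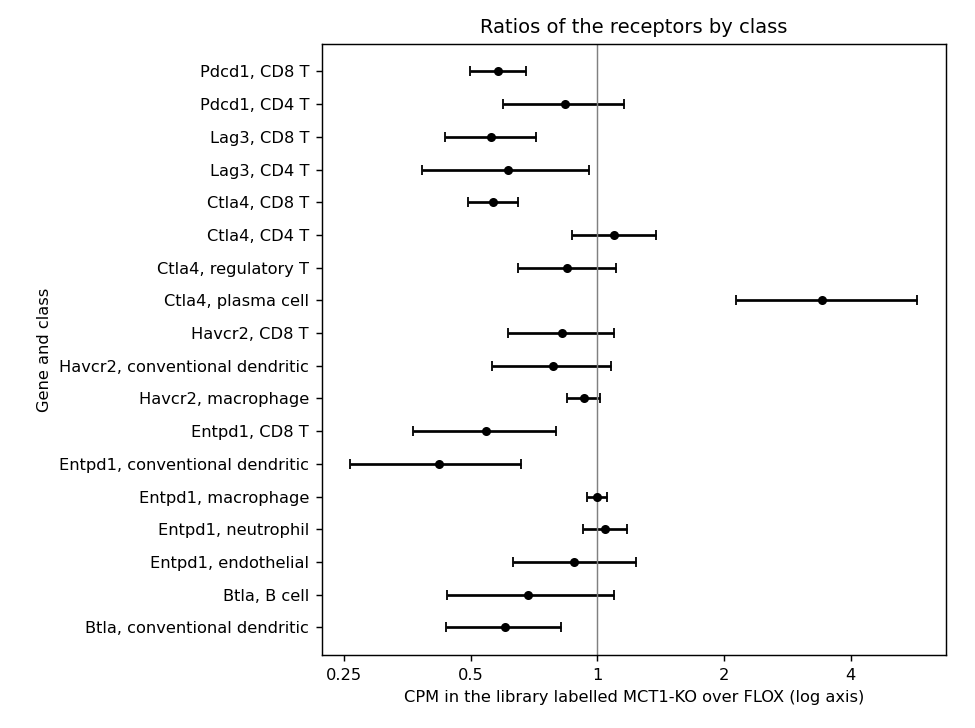
Ratio of the CPM in the library labelled MCT1-KO over FLOX (log x axis) with 95% counting intervals for receptor genes in the classes that hold them (y axis). Intervals lie wholly below 1 for Pdcd1, Lag3, Ctla4 and Entpd1 in CD8 T cells, Lag3 in CD4 T cells, and Entpd1 and Btla in conventional dendritic cells, and, among the pairs shown, wholly above 1 for Ctla4 in plasma cells.

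Co-detection asks how many of the 8 receptors a single CD8 T cell carries. In FLOX, 241 of 297 cells (81.1%, 76.2 to 85.4) held UMIs of at least 2 receptor genes and 94 (31.6%, 26.4 to 37.3) of at least 4. In the library labelled MCT1-KO, 133 of 207 (64.3%, 57.3 to 70.8) held at least 2 and 37 (17.9%, 12.9 to 23.8) at least 4. Cells with none of the 8 were 15 of 297 (5.05%) and 26 of 207 (12.6%). Thinned to 1000 UMIs, at least 2 receptors were found in 43.2% (37.4 to 49.0) and 27% (21.0 to 33.7) of cells, and none in 25.7% (20.8 to 31.1) and 38.5% (31.7 to 45.6). At equal depth the intervals of the libraries did not overlap for either count.

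**Figure D5:**
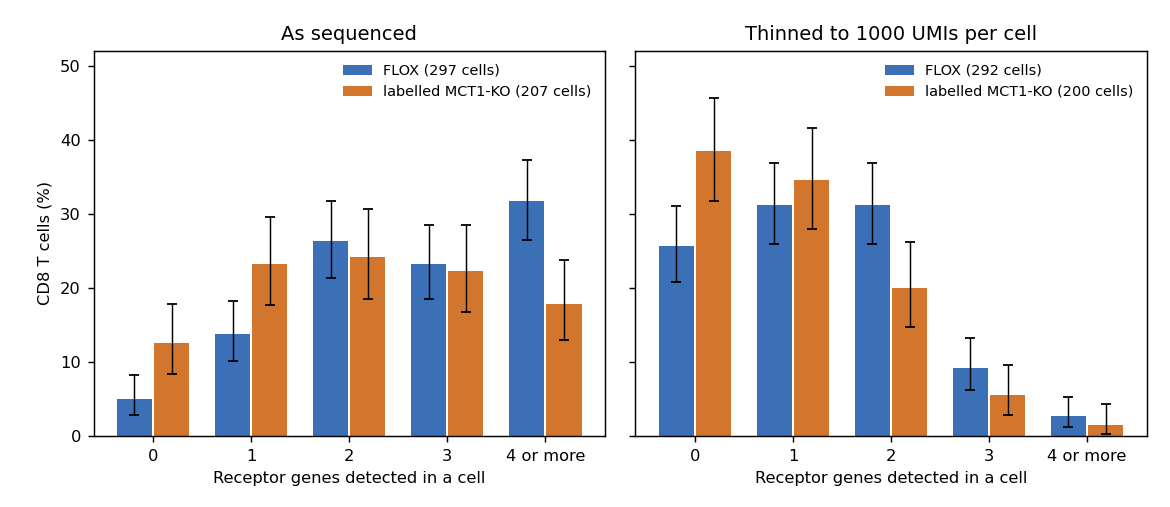
Percent of CD8 T cells (y axis) by the number of the 8 receptor genes detected in the cell (x axis), as sequenced and after thinning each cell to 1000 UMIs, with 95% binomial intervals. FLOX bars are lower at 0 receptors and higher at 4 or more as sequenced (31.6% against 17.9%), and after thinning 25.7% of FLOX cells against 38.5% have 0.

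As sequenced, the most frequent combination in FLOX was Pdcd1 with Ctla4 and no other receptor, in 39 of 297 CD8 T cells, followed by Ctla4 alone in 20. In the library labelled MCT1-KO, cells with none (26 of 207) and with Ctla4 alone (20) came before Pdcd1 with Ctla4 (13). Thinned to 1000 UMIs, cells with none came first in both libraries (75 of 292 and 77 of 200). Ctla4 alone was then found in 34 and 33 cells and Pdcd1 with Ctla4 in 34 and 12. As sequenced, up to 7 receptors were found in 1 cell of FLOX and up to 6 in the other library. In all, 75 and 65 different combinations occurred.

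With depth made equal, CD8 T cells with a Pdcd1 UMI were compared with those without. Ctla4 was found in 50% (40.7 to 59.3) of the 120 cells with Pdcd1 and in 33.1% (26.2 to 40.7) of the 172 without in FLOX, and in 40% of 50 against 30.7% of 150 cells in the other library. Tigit was found in 15.8% against 6.4% and in 8% against 3.33%, and Lag3 in 19.2% against 10.5% and in 18% against 10%. These 3 were higher with Pdcd1 in both libraries, though only the Ctla4 intervals in FLOX did not overlap. For Havcr2 (11.7% against 10.5%, and 6% against 9.33%) and Cd160 (6.67% against 6.4%, and 4% against 6.67%) the direction differed between the libraries. Entpd1 was found in 6.67% against 9.88% and in 4% against 6%, from 8 and 2 cells with Pdcd1, with intervals that overlapped. Of the 6 other receptors with at least 50 UMIs, 3 were thus higher with Pdcd1 in both libraries, where 24.1% of 5207 genes were. The remaining lists were counted over all their genes, also those under 50 UMIs, so their counts are not comparable with that share. Higher in both libraries were 5 of 10 effector products (with Tnf, under the minimum), 4 of 8 activating counterparts and 4 of 12 transcription factors. Further counts were 2 of 8 signalling genes, 2 of 11 other inhibitory receptors, 1 of 7 heat shock and stress genes and 0 of 13 genes on the ligand list. On that list Fgl1, Ceacam1, Nectin3 and Tnfrsf14 were found in none of these cells and could not be higher. Non-overlapping intervals were also found for Ccl4 in FLOX (59.2% against 38.4%) and for Tnfrsf9 in the other library (58% against 30%). Without thinning, Lag3 was in 40.7% against 18.3% of FLOX cells, Havcr2 in 31.4% against 19.4%, Entpd1 in 24.5% against 20.4% and Cd160 in 17.2% against 20.4%. In the other library Havcr2 was then in 33.6% against 18% and Entpd1 in 24.3% (16.5 to 33.5) against 7% (2.86 to 13.9). Directions that turned with thinning thus included Entpd1 in both libraries, Havcr2 in the library labelled MCT1-KO and Cd160 in FLOX. Unthinned cells with Pdcd1 were also deeper (median 3440 against 2720 UMIs in FLOX, 3467 against 2653 in the other library).

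Genes around the receptors were counted on lists of known function in CD8 T cells, where 9.49% of all genes lay below 1/1.5 and 7.12% above 1.5. Other inhibitory receptors had 3 of 7 testable genes below 1/1.5 and 0 above, with a median ratio of 0.738: Cd200r1 (44.0 and 11.8 CPM), Vsir, which encodes VISTA (67.2 and 30.6 CPM), and Cd5 (98.7 and 58.9 CPM). Vsir was close to its level in empty barcodes (53.2 and 31.0 CPM). Since free RNA could account for 7.84% and 4.68% of UMIs in these cells by macrophage and collagen genes, this closeness does not by itself mark it as free RNA. How much of it is free RNA was not tested. Of 8 signalling genes behind these receptors, 1 lay below, the phosphatase gene Ptpn6 (SHP-1, 134 and 75.4 CPM), with a median of 0.783. Transcription factors of exhaustion and memory had 2 of 10 below and a median of 0.888: Tox, a factor that maintains exhausted cells (560.0 and 343 CPM, ratio 0.612, 0.532 to 0.704), and Prdm1 (37.3 and 10.6 CPM). The stem-like factor Tcf7 had only 32 and 9 UMIs. Effector products had 4 of 9 below and a median of 0.784, with Ccl3 at 1091 and 243 CPM, while Gzmb, at 346 and 445 CPM, had a ratio of 1.29 (1.12 to 1.48).

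The activating counterparts differed in both directions. Of 7 testable, 2 lay below 1/1.5, Cd28, the competitor of CTLA-4 (330.2 and 217 CPM), and Cd226, the competitor of TIGIT (241 and 118 CPM), and 1 lay above, Tnfrsf4 (OX40, 87.9 and 183 CPM). Their median was 1.22. Heat shock and stress genes had 6 of 7 below, with a median of 0.241. The median of all 5208 genes was 0.984.

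Ligands were read in the classes that hold them. Cd274 (PD-L1) was at 266 and 99.6 CPM in neutrophils, 120.1 and 94.6 CPM in macrophages and 31.6 and 14.9 CPM in tumor cells, against 19.8 and 12.1 CPM in empty barcodes. Cd80, a ligand of CTLA-4, was at 590.0 and 279 CPM in neutrophils, and Cd86 at 647 and 474 CPM in macrophages. The TIGIT ligands Pvr and Nectin2 were at 58.5 and 65.8 CPM and at 62.8 and 50.7 CPM in tumor cells, where empty barcodes had 36.1 and 36.9 CPM and 51.5 and 43.3 CPM. The tumor cell level of Nectin2 thus lay near that of empty barcodes, which does not by itself mark it as free RNA, and how much of it is free RNA was not tested. The ligand list of 13 genes also holds Nt5e, the gene of an enzyme and not of a ligand. Of the 13, 11 had enough UMIs in macrophages, where 2 lay below 1/1.5 and 0 above, against 9.21% and 8.57% of all genes. In neutrophils 5 of 9 lay below and 0 above, with a median ratio of 0.625, against 11% and 18.7% of all genes.

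The genes whose class levels were most like each receptor were taken over 30 points, 15 classes in each library, on log2(CPM + 1) among 15033 genes. They are a description, since the points share libraries and cells. For Pdcd1 they were Zap70 (Pearson r 0.977), Trbc2 (0.97) and Cd3g (0.963), and for Lag3 Trbc2 (0.941), Cd3e (0.929) and Themis (0.926). Trbc2, Cd3g and Cd3e are T cell markers of the gate itself. Tigit went with Icos (0.97) and Skap1 (0.964), Ctla4 with Gimap7 (0.957), Ptprcap (0.935) and Gm19585 (0.925), and Cd160 with Klrc1 (0.981), Ifng (0.977) and Xcl1 (0.975). The other 3 had lower values: Havcr2 with Lrmp (0.872), Id2 (0.816) and Tnfaip8 (0.814), Btla with H2-Oa (0.849), Aff3 (0.845) and Ccr7 (0.841), and Entpd1 with Crlf2 (0.721), Gngt2 (0.699) and Ifnar1 (0.690).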

How the data were processed

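By the study's methods, Fastp was used to clean the reads and SeekOneTools to obtain the matrix, with alignment to the human build GRCh38. The deposited matrices, however, carry mouse Ensembl identifiers, so the reference actually used is unclear. Their values are raw UMI counts per gene and barcode, deposited by the authors without a cell filter (1437105 barcodes for FLOX and 1433633 for the library labelled MCT1-KO). The authors' processing notes name Seurat 4.0.0. The labels name a SeekOne microwell kit and the methods name droplet kits.

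Cell filters are given in the report. A class needed at least 3 UMIs from at least 2 of its markers, and more than a set multiple of the UMIs expected from empty barcodes (0.5 to 5 by class). Cells matching more than 1 class were left out, and no doublet caller was run. These thresholds were set after the marker distributions had been seen. Of the CD8 T cells, 5 and 3 lay at the minimum of 3 T cell marker UMIs. The 8 receptors and the gene lists were chosen with earlier results of these data known.

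Intervals are exact Poisson for levels, conditional exact for ratios and Clopper-Pearson for shares, at 95%. A ratio was counted past 1.5 or 1/1.5 where the gene had at least 50 UMIs in the class, both libraries summed. Named genes were the 8 receptors, genes of the lists, and the 3 genes most like each receptor. For Tigit, 1 of these is not reported here. No statistical test was run. The code was tested on simulated data. The software was Python 3.11.15 with scipy 1.17.1, numpy 2.4.6, pandas 2.3.3 and, for plots, matplotlib 3.10.9. Alternatives covered the filters, the gates, the total behind CPM, free RNA, depth, the weight of cells and the UMIs that count as detection. Those on deep barcodes only, T cells of mixed class and shallow CD8 T cells were added after seeing the data.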

Additional observations from a re-analysis of the deposited data

Results flagged for a closer look

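Ctla4 differed in direction between classes. In plasma cells it had a ratio of 3.42 (2.13 to 5.76) in the library labelled MCT1-KO over FLOX, from 107 UMIs in 58 cells (237 CPM) against 21 UMIs in 33 cells (69.2 CPM), while the ratio was 0.566 (0.494 to 0.647) in CD8 T cells and 0.657 (0.513 to 0.838) in other T cells. The difference between the classes was not tested. Ctla4 was found in 29 of the 58 plasma cells and 7 of the 33, and 27 and 6 of these had 0 UMIs of T cell markers. The plasma cells with most UMIs held 19 and 8, and the top 3 cells 43 of 107 and 14 of 21 UMIs. Entpd1 was also higher in plasma cells of the library labelled MCT1-KO, with 34 against 7 UMIs, a ratio of 3.26 (1.42 to 8.72), and lay under the minimum of 50 UMIs over both libraries.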

How the results depend on the processing

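Of 220 values recomputed under an alternative, 174 stayed within the 95% counting interval of the reported value, 45 moved beyond it and 1, the Entpd1 ratio, crossed 1 although its reported interval lay below 1. Some values could not move. A stricter gate for CD8 T cells leaves levels in dendritic cells, neutrophils, B cells, CD4 T cells and regulatory T cells as they were. A mitochondrial limit set from the spread in each library kept the same number of CD8 T cells, 297 and 207. The 174 values are therefore not independent checks. Of the ratios whose reported interval held 1, Havcr2 stayed below 1 in 10 of 13 alternatives, and Tigit and Cd160 in 12 each. In CD8 T cells the Pdcd1 ratio ranged from 0.533 to 0.812 over 13 alternatives and was past 1/1.5 in 12, and the Ctla4 ratio ranged from 0.513 to 0.712 and was past it in 12. Lag3 ranged from 0.541 to 0.973 (past in 9), Entpd1 from 0.53 to 1.04 (past in 10), Havcr2 from 0.628 to 1.48, Tigit from 0.518 to 1.25, Cd160 from 0.729 to 1.02 and Btla from 1.69 to 3.06.

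Ratios that moved were, without T and NK cells carrying markers of another class, Lag3 0.722, Havcr2 1.41, Tigit 1.25 and Ctla4 0.712. After thinning to 1000 UMIs they were Lag3 0.825, Tigit 0.518 and Ctla4 0.661. In cells under 3000 UMIs they were Lag3 0.973 and Havcr2 1.48, and Entpd1 turned to 1.04. With deep barcodes only, the Pdcd1 ratio was 0.812. The share of CD8 T cells with 2 or more receptors in FLOX and the library labelled MCT1-KO was 43.2% and 27% after thinning, 46.8% and 30.4% with 2 UMIs as detection, and 97.7% and 83.3% with deep barcodes only.

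Levels in the leading class, over both libraries, moved as follows. Without an upper limit of genes, Havcr2 was at 104, Entpd1 at 372 and Btla at 258 CPM. With ribosomal, mitochondrial, heat shock and acinar genes left out of the total, Pdcd1 was at 684, Lag3 at 274, Havcr2 at 217, Tigit at 137, Ctla4 at 2514, Cd160 at 110.3, Entpd1 at 476 and Btla at 509.6 CPM. With free RNA subtracted, Entpd1 was at 456 and Btla at 419.6 CPM. After thinning, Pdcd1 was at 552, Lag3 at 235, Entpd1 at 542 and Btla at 529 CPM. As a mean over cells, Pdcd1 was at 508, Ctla4 at 2079.8, Entpd1 at 540.2 and Btla at 443 CPM. With deep barcodes only, Pdcd1 was at 277, Lag3 at 136, Tigit at 38.0, Ctla4 at 1461, Cd160 at 97.7, Entpd1 at 41.3 and Btla at 41.9 CPM. With T cells of mixed class kept, Pdcd1 was at 406 CPM. Leaving genes out of the total raises every level by construction. The cause of the other moves was not tested.

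No paired analysis was possible because each genotype has 1 library. Library and genotype cannot be told apart, and small classes such as regulatory T cells rest on 10 and 15 cells.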

Other observations

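Tumor cells of the library labelled MCT1-KO held 104 Pdcd1 UMIs in 90 of 3436 cells (2.34 CPM), against 25 UMIs in 24 of 1926 cells in FLOX (0.991 CPM). Both lie below the empty barcodes (7.43 and 9.70 CPM), and the highest count in 1 cell was 3 and 2. The rule for flagged results left out levels below those of empty barcodes, so this difference could not be flagged. Free RNA could account for 5.14% and 7.5% of tumor cell UMIs, so such a level does not by itself mark these UMIs as free RNA. Their source was not tested.

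Conventional dendritic cells held 29 Ctla4 UMIs in 7 of 68 cells in FLOX and 0 in 40 cells of the other library, where a limit of 3 counts allows up to 7.5% of such cells with a Ctla4 UMI and the Clopper-Pearson interval up to 8.81%. Of the FLOX cells with Ctla4, 5 carried Xcr1 or Clec9a.

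NK cells held 8 Havcr2 and 5 Btla UMIs in 15 cells of FLOX, and 0 of either in 31 cells of the other library. The 5 Btla UMIs came from 1 cell.

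Gamma-delta T cells, too few to rank, held 24 Ctla4 UMIs in 6 of 8 cells of FLOX and 5 in 4 of 9 cells of the other library.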
